A study of Arabidopsis thaliana with 16 samples.

Results

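Isolated transposable elements are annotated elements whose locus shares no base with any other entry of the deposited tables. They may still adjoin one. The elements described here were selected on their measured FPKM, as the isolated elements with a value above 0 in at least 1 of the 3 groups for which values were used. This gave 503 of 18724 isolated elements (2.69%), out of 31116 transposable elements and 69252 entries in all. The choice rests on the expression values themselves, so the counts and levels below describe these elements and are not tests. The groups were dd seedlings in white light, Col-0 seedlings given UV-B and Col-0 seedlings kept in white light. Seedlings labelled dd carry the T-DNA alleles drm1-2 and drm2-2, and all groups are of the Columbia-0 ecotype and were harvested whole at day 10 on sucrose medium under 60 mE of white light. The UV-B group also received 1.5 mE at 315 nm. Each group had 2 RNA-seq libraries, but the tables give 1 pooled value per group, in FPKM (fragments scaled by element length and by library depth), so the spread between replicates is unknown. In whole seedlings, fewer cells that transcribe an element and less RNA per cell cannot be told apart.

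Transposable elements are mobile DNA sequences that plants keep mostly silent by DNA methylation and repressive chromatin. In Arabidopsis, DRM2 places methylation in all sequence contexts where small RNAs and the polymerases Pol IV and Pol V guide it, mainly on short elements and on the edges of long ones. MET1, CMT3 and CMT2, with the remodeller DDM1, maintain methylation over the bodies of long elements in the heterochromatin around the centromeres. The files pair no family name with these elements, and none of the 503 matched an entry of the RefSeq gene table, so they are given by identifier and position.

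Among the 20 genes of a list for the silencing machinery, 19 were tested by the authors in each comparison. In dd, 0 were higher and 2 were lower at q under 0.05 in the authors' deposited table, against a background of 0.421% of all tested entries called in either direction. One of the 2 was DRM2, which carries a T-DNA allele in dd, so its call is not separate from the genotype. DRM2 was at 1.82 FPKM in dd and 7.09 FPKM in white-light Col-0 (q = 0.0138 in the authors' deposited table). ROS1, a DNA glycosylase that removes methylated cytosine, was at 0.907 FPKM in dd and 7.02 FPKM in white-light Col-0 (q = 0.0138 in the authors' deposited table). At an unadjusted p under 0.05 in the authors' deposited table there were 4, the other 2 being NRPD1, the largest subunit of Pol IV, at 2.53 FPKM in dd and 1.82 FPKM in white-light Col-0 (p = 0.034, q = 0.999), and MORC6, a silencing ATPase, at 6.34 FPKM in dd and 4.51 FPKM in white-light Col-0 (p = 0.0125, q = 0.769). DRM1 was at 0.319 FPKM in dd and listed at 0 in both Col-0 groups, and was not tested. Under UV-B, 0 of the 19 passed q or an unadjusted p under 0.05 in the authors' deposited table, where 3.85% of all tested entries passed q. The leaf gene RBCS1A (11750 FPKM in dd, 13340 FPKM under UV-B, 11892 FPKM in white-light Col-0) and the root gene CASP1 (38.0, 33.2 and 46.8 FPKM in the same groups) were detected. The leaf gene LHCB1.2 was at 5262, 3340 and 5360 FPKM in the same groups (q = 0.00249 for UV-B in the authors' deposited table). The root gene SHR was at 6.71 to 8.04 FPKM, the shoot meristem gene STM at 1.27 to 1.76 FPKM and the root meristem gene PLT1 at 0.486 to 0.578 FPKM. The seed storage gene CRA1 was at or below 0.504 FPKM and the anther gene AMS at or below 0.0677 FPKM.

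Transcripts were rare over isolated elements. A value above 0 was found for 2.69% of them, for 12.1% of 12392 elements that overlap another entry, for 17.0% of 3857 transposable element genes and for 85.2% of 27652 protein-coding genes. In dd, 147 isolated elements were above 0 (29.2% of the 503). Under UV-B there were 173 (34.4%), and in white-light Col-0 310 (61.6%). Over all entries of the tables the shares above 0 were much closer, at 35.4% in dd, 35.65% under UV-B and 38.73% in white-light Col-0.

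Length went with both detection and level. The 503 elements were 63 to 5488 bp long with a median of 613 bp, against a median of 235 bp for the 18221 isolated elements at 0. Elements with a value made up 0.228% of those up to 100 bp, 3.26% of those over 300 and up to 500 bp, and 10.96% of those over 2000 bp. Levels ran the other way. The Spearman correlation of value with length was -0.772 over the 147 elements in dd, -0.837 over the 173 under UV-B and -0.862 over the 310 in white-light Col-0, all within the same pooled libraries. Elements up to 200 bp had medians of 28.3 FPKM in dd, 22.1 FPKM under UV-B and 6.48 FPKM in white-light Col-0. Elements over 1000 bp had medians of 0.110 FPKM in dd, 0.0703 FPKM under UV-B and 0.0288 FPKM in white-light Col-0. FPKM divides by length, so a high value of a very short element can rest on few fragments.

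**Figure D1:**
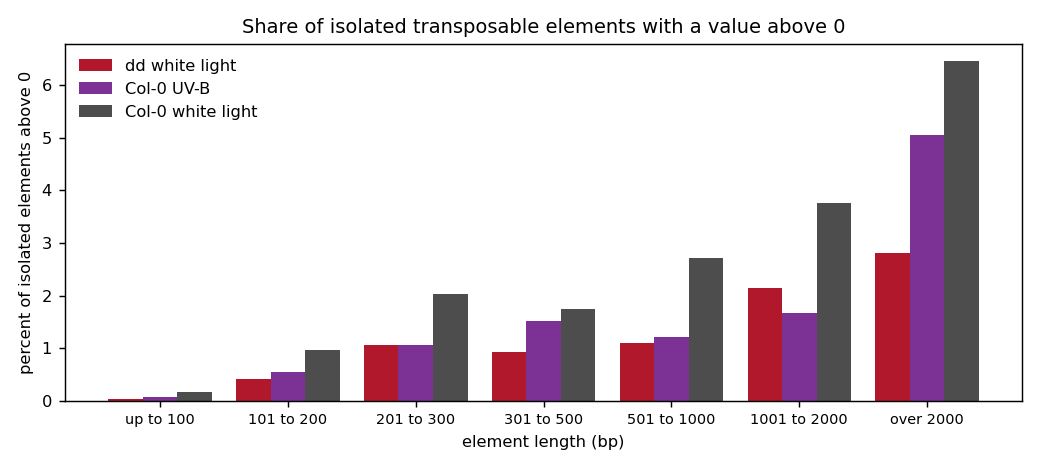
Bars give the percent of isolated transposable elements with a value above 0 in white-light dd, UV-B Col-0 and white-light Col-0, by element length in bp. In each group the share is lowest up to 100 bp and highest over 2000 bp, though it does not grow at every class between, and it is highest in white-light Col-0 in all 7 classes.

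Most values lay on a few curves of length. The product of FPKM and length less 200 bp gathered at a pair of values in each group, called steps here and taken as what 1 fragment in either of the 2 pooled libraries is worth. At a length of 1000 bp the steps stood at 0.105 and 0.144 FPKM in dd, at 0.0967 and 0.0993 FPKM under UV-B, and at 0.0347 and 0.0389 FPKM in white-light Col-0. A step in dd was therefore worth 2.70 to 4.14 times a step in white-light Col-0, and a step under UV-B 2.48 to 2.86 times. Of the 351 elements of 350 bp or longer, where the steps can be read, 279 (79.5%) were within 5% of a step in every group that listed them. In dd, 64 of 102 elements were at 1 step (62.75%). Under UV-B, 91 of 116 were (78.45%), and in white-light Col-0 164 of 216 (75.93%). Values are also given below in step units, a value divided by the mean step of its group at that length.

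**Figure D2:**
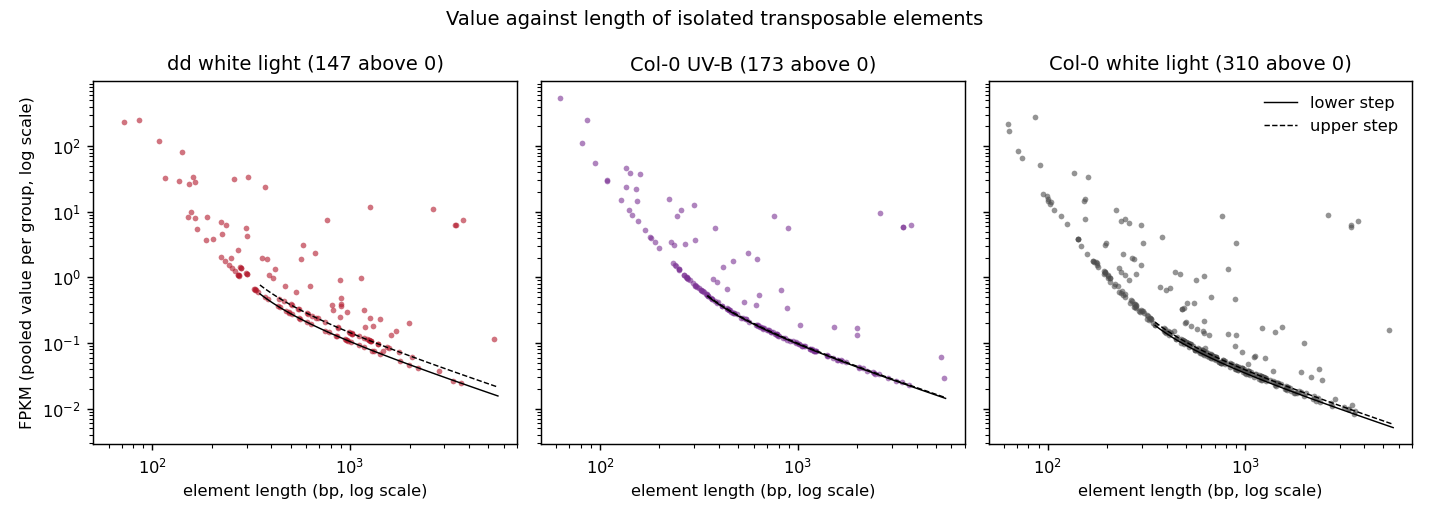
Each point is an element with a value above 0, by length in bp and pooled FPKM, both on log scales, with a panel each for white-light dd (147 elements), UV-B Col-0 (173) and white-light Col-0 (310). The solid and dashed lines are the lower and upper steps of each group, along which most points lie, and the lines are lowest in white-light Col-0.

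Most elements were listed in 1 group only. Of the 503, 83 were above 0 only in dd, 106 only under UV-B and 227 only in white-light Col-0, and 40 were above 0 in all 3 groups. The level behind these counts differed. Of the elements of 350 bp or longer, 71 of the 72 listed only under UV-B were at 1 step, as were 143 of the 161 listed only in white-light Col-0 and 47 of the 60 listed only in dd. The highest reached 126 step units among elements listed only in dd, 1.99 among those listed only under UV-B and 4.30 among those listed only in white-light Col-0. Among elements listed in all 3 groups, 1 of 25 was at 1 step throughout and 17 of 25 reached 5 step units in some group.

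**Figure D3:**
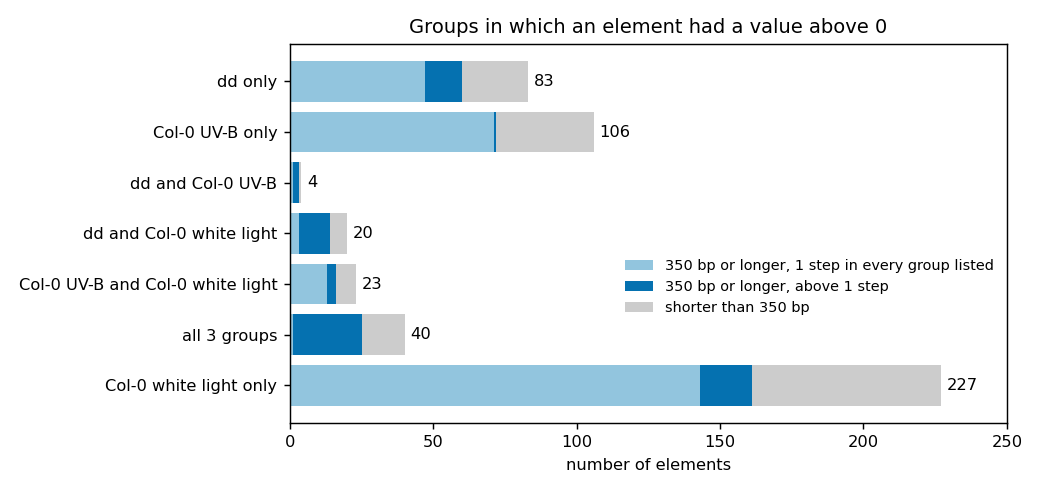
Bars give the number of elements by the groups in which they had a value above 0. Colours split them into elements of 350 bp or longer at 1 step in every group listed, the rest of that length (marked above 1 step), and those shorter than 350 bp. The rest include AT3TE35610, listed only in dd, which lay between the 2 steps of dd. The 227 elements listed only in white-light Col-0 form the longest bar. In the class marked above 1 step, the bar for all 3 groups holds 24 elements against 13 for dd only.

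Set against white-light Col-0, 87 of the 397 elements above 0 in either group were above 0 in dd and at 0 in Col-0 (21.9%), where 3.1% of all entries were. The reverse held for 250 elements (63.0%), where 11.4% of all entries were. Under UV-B, 110 of 420 elements were above 0 with white-light Col-0 at 0 (26.2%, against 3.01% of all entries), and 247 were at 0 with white-light Col-0 above 0 (58.8%, against 10.7%). With a common floor on the product of value and length, set from elements over 1200 bp, the counts were 102 above 0 in dd alone and 73 in Col-0 alone, and 116 above 0 under UV-B alone and 75 in white-light Col-0 alone. With that floor the order of the 2 directions turned round in both comparisons. The floor was the lowest product in dd, the highest of the groups' lowest products. In long elements a step, the value at which most elements gathered, could pass it in dd but not in white-light Col-0. The order under the floor is therefore not read as a direction of change. The steps follow length less 200 bp, so the floor acts differently on short elements, and it does not even out the groups.

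In dd, the authors had tested 47 of the elements, and 2 were higher and 0 lower at q under 0.05 in the authors' deposited table, against 0.264% and 0.157% of all 20416 tested entries. At an unadjusted p under 0.05, 8 were higher and 4 lower, where 3.71% of all tested entries passed in either direction. Both elements past q were listed in dd alone.

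AT1TE58825 (chr1:17713520-17714780 in TAIR10, 1261 bp) was at 11.7 FPKM in dd and listed at 0 both under UV-B and in white-light Col-0 (p = 5e-05, q = 0.0138 in the authors' deposited table). Its value in dd came to 126 step units, while 1 step at its length would have been 0.0749 FPKM under UV-B and 0.0294 FPKM in white-light Col-0. Of the 7 entries within 5 kb, 4 had a value. The nearest protein-coding gene, AT1G48010 at 859 bp, and the element AT1TE58830 at 497 bp were listed at 0 in all groups. PMEI1, a pectin methylesterase inhibitor gene at 1270 bp, was listed at 0 in dd, at 0.139 FPKM under UV-B and at 0.0559 FPKM in white-light Col-0. The locus range of the mitochondrial lipoamide dehydrogenase gene mtLPD1 was 2112 bp away, as was that of the element AT1TE58840. mtLPD1 was at 165 FPKM in dd, 206 FPKM under UV-B and 157 FPKM in white-light Col-0.

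AT2TE22550 (chr2:5584815-5585393, 579 bp) was at 3.11 FPKM in dd and listed at 0 in both Col-0 groups (p = 5e-05, q = 0.0138 in the authors' deposited table). This came to 12.0 step units. The elements that adjoin it on both sides, AT2TE22545 and AT2TE22555, were at 0 in all groups. The entries AT2G05895, AT2G13420 and AT2G13422 shared a distance of 1018 bp. It is measured to their locus range, so each gene itself can lie further away. The non-coding gene AT2G05895 was at 0.389 FPKM in dd and 0 in both Col-0 groups. The pseudogene AT2G13420 was at 3.25 FPKM in dd, 1.35 FPKM under UV-B and 1.57 FPKM in white-light Col-0.

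A further element of this kind, AT3TE46670 (1137 bp), reached 0.964 FPKM in dd, or 9.18 step units, with both Col-0 groups at 0. It was not tested by the authors. It is named here as the only other element of 350 bp or longer listed in dd alone with 5 or more step units. Shorter elements also had high values in dd with both Col-0 groups at 0. They include AT5TE00870 (165 bp, 28.3 FPKM, p = 0.0014), AT4TE06990 (360 bp, 1.995 FPKM, p = 0.0042) and AT3TE37570 (190 bp, 8.44 FPKM, p = 0.0245), with unadjusted p-values from the authors' deposited table and q of 0.189 or more. AT3TE58200 (72 bp) was at 237 FPKM in dd and 0 in both Col-0 groups, and its p in the authors' deposited table was 0.105.

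Several elements were higher in dd and also listed in Col-0. AT1TE42205 (304 bp) was at 34.3 FPKM in dd, 3.78 FPKM under UV-B and 3.33 FPKM in white-light Col-0 (p = 0.00755 for dd in the authors' deposited table, q = 0.586). The transposable element gene AT1G35280 that adjoins it was listed at 0 in dd and under UV-B and near 0 in white-light Col-0. AT2TE27505 (258 bp) was at 31.4 FPKM in dd, 10.7 FPKM under UV-B and 6.85 FPKM in white-light Col-0 (p = 0.015, q = 0.844 in the authors' deposited table). AT2TE82000 (371 bp) was at 23.8 FPKM in dd, 0.944 FPKM under UV-B and 0.720 FPKM in white-light Col-0, a log2 ratio of 5.05 for dd, and did not pass (p = 0.143 in the authors' deposited table). The gene beside it, AT2G43670 at 610 bp, ran the other way, at 2.24 FPKM in dd and 6.09 FPKM in white-light Col-0.

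AT5TE37730 (667 bp) was at 2.32 FPKM in dd, 0.166 FPKM under UV-B and 0.499 FPKM in white-light Col-0, and its neighbours on both sides were at or below 0.0887 FPKM. AT3TE53510 (108 bp) was at 119.9 FPKM in dd, 30.3 FPKM under UV-B and 10.6 FPKM in white-light Col-0. The protein-coding gene AT3G32047, 36 bp away, was at 1.39 FPKM in dd, 0.116 FPKM under UV-B and 0.475 FPKM in white-light Col-0. Neither element passed an unadjusted p under 0.05 in the authors' deposited table.

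Other elements were lower in dd. AT3TE49375 (245 bp) was listed at 0 in dd, at 8.50 FPKM under UV-B and at 7.72 FPKM in white-light Col-0 (p = 0.00055, q = 0.096 in the authors' deposited table). AT3TE60310 (chr3:14749400-14750294, 895 bp) was at 0.364 FPKM in dd, 5.67 FPKM under UV-B and 3.29 FPKM in white-light Col-0. It had the lowest log2 ratio for dd among elements of at least 1 FPKM in the higher group, -3.18 (p = 0.0298), and also passed an unadjusted p under 0.05 for UV-B (p = 0.0195, q = 0.252 in the authors' deposited table). Its flanking elements, 191 and 1119 bp away, were at 0 in all groups. AT1TE22865 (154 bp) was listed at 0 in dd, at 14.4 FPKM under UV-B and at 15.9 FPKM in white-light Col-0 (p = 0.036 for dd in the authors' deposited table).

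AT3TE91920 (268 bp) was listed at 0 in dd, at 3.26 FPKM under UV-B and at 1.99 FPKM in white-light Col-0 (p = 0.0458 for dd in the authors' deposited table). AT1TE23940 (819 bp), which lies between the wall-associated kinase genes WAK4 and WAK5, was at 0.322 FPKM in dd, 0.636 FPKM under UV-B and 1.36 FPKM in white-light Col-0. WAK4 was at 0.161 FPKM in dd and 0.210 FPKM in white-light Col-0, and WAK5 was at 0.0517 FPKM in dd and 0.0560 FPKM in white-light Col-0.

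The authors had tested 43 of the elements for UV-B. At q under 0.05 in the authors' deposited table, 0 were higher and 0 lower, against 2.04% and 1.81% of all tested entries. There were 3 higher and 0 lower at an unadjusted p under 0.05, where 11.7% of all 20595 tested entries passed in either direction. Besides AT3TE60310, these were AT2TE20630 (135 bp), at 24.0 FPKM under UV-B and listed at 0 in white-light Col-0 (p = 0.0301 in the authors' deposited table), and AT5TE35215 (229 bp), at 3.46 FPKM under UV-B and listed at 0 in white-light Col-0 (p = 0.0309). Both were also at 0 in dd. The highest value of all was that of the shortest element, AT3TE22600 (63 bp), listed at 0 in dd, at 551 FPKM under UV-B and at 216 FPKM in white-light Col-0 (p = 0.523 for UV-B in the authors' deposited table).

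AT4TE12660 (298 bp) was at 5.74 FPKM in dd, 12.7 FPKM under UV-B and 6.36 FPKM in white-light Col-0 (p = 0.0855 for UV-B in the authors' deposited table). The polyubiquitin gene AT4G05320, 736 bp away, was at 1092 FPKM under UV-B and 1079.7 FPKM in white-light Col-0. AT5TE36470 (564 bp) was at 1.88 FPKM in dd, 2.38 FPKM under UV-B and 0.900 FPKM in white-light Col-0 (p = 0.0903 for UV-B in the authors' deposited table).

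Of the 351 elements of 350 bp or longer, 24 reached 5 step units in some group, and the most abundant of these were close in all 3 groups. AT3TE05245 (chr3:1246669-1250395, 3727 bp) was at 7.49 FPKM in dd, 6.24 FPKM under UV-B and 7.26 FPKM in white-light Col-0. AT3TE63065 (2620 bp) was at 10.9 FPKM in dd, 9.72 FPKM under UV-B and 9.07 FPKM in white-light Col-0. AT1TE98440 (3427 bp) was at 6.39 FPKM in dd, 5.93 FPKM under UV-B and 6.23 FPKM in white-light Col-0. These 3, with AT5TE46635 (3413 bp; 6.29, 5.95 and 5.81 FPKM in the same order of groups), held 634 to 870 step units in white-light Col-0, the most among elements of 350 bp or longer.

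**Figure D4:**
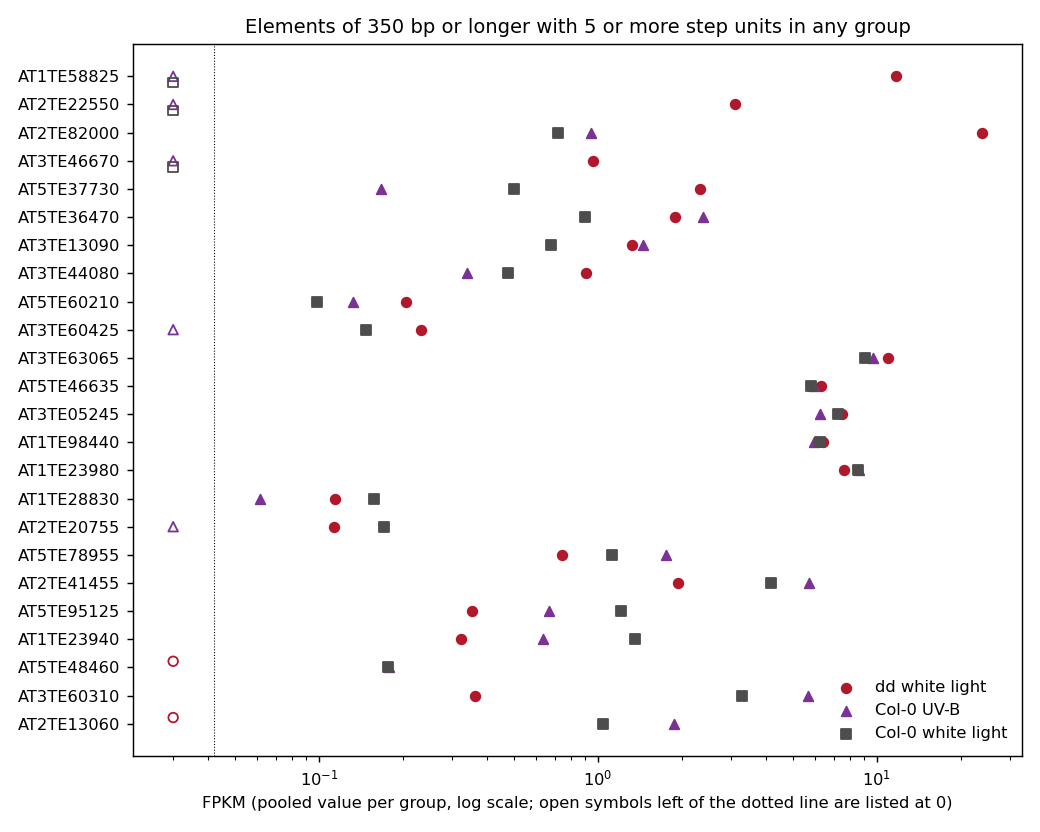
Pooled FPKM on a log scale of the 24 elements of 350 bp or longer with 5 or more step units in any group. Circles are white-light dd, triangles UV-B Col-0 and squares white-light Col-0, and open symbols left of the dotted line are listed at 0. The long elements AT3TE05245, AT3TE63065, AT1TE98440 and AT5TE46635 have 3 symbols close together, while AT1TE58825, AT2TE22550 and AT3TE46670 have a value in dd alone.

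Of the elements above 0 in both groups, 42 of 60 were higher in dd than in white-light Col-0, with a median log2 ratio of 0.95, where the median over all 23656 such entries was 0.01. Under UV-B, 47 of 63 were higher, with a median of 0.66 against 0.00 over 23857 entries. Among transposable elements that overlap another entry, the medians were 0.175 in dd (428 elements) and 0.214 under UV-B (455 elements). In dd, 15 of the 60 had the ratio of 1 step to 1 step within 1%, and the median of the other 45 was 0.27. Under UV-B this held for 20 of the 63, and the median of the other 43 was 0.18. White-light Col-0 had 20 elements with 5 or more step units. In dd, 2 of them were listed at 0, and of the other 18, 10 were higher and 8 lower (median 0.04). Under UV-B, a different 2 were listed at 0, and of the other 18, 11 were higher and 7 lower (median 0.04).

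The authors' lists of raised transposable elements held 35 of the 503 elements for dd, 13.0% of its 270 entries, and 34 for UV-B, 12.6% of its 269. Of the elements above 0 in both groups, 35 of 60 were in the dd list and 34 of 63 in the UV-B list. On the same basis, 40.2% of all transposable elements and transposable element genes were in the dd list and 37.5% in the UV-B list. In the tables, the listed elements and transposable element genes had ratios of 1.52 or more in dd and 1.53 or more under UV-B, and those above 0 in both groups but not listed reached 1.496 and 1.502. No listed entry had white-light Col-0 at 0. The 87 elements in dd and the 110 under UV-B with Col-0 at 0 are therefore outside the lists, AT1TE58825 and AT2TE22550 among them. Of the listed elements, 15 of 35 in dd (42.9%) and 20 of 34 under UV-B (58.8%) had the ratio of 1 step to 1 step, which equal numbers of fragments above 1 also give. None of the listed elements passed q in the authors' deposited table, and 2 in dd and 1 under UV-B passed an unadjusted p under 0.05.

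**Figure D5:**
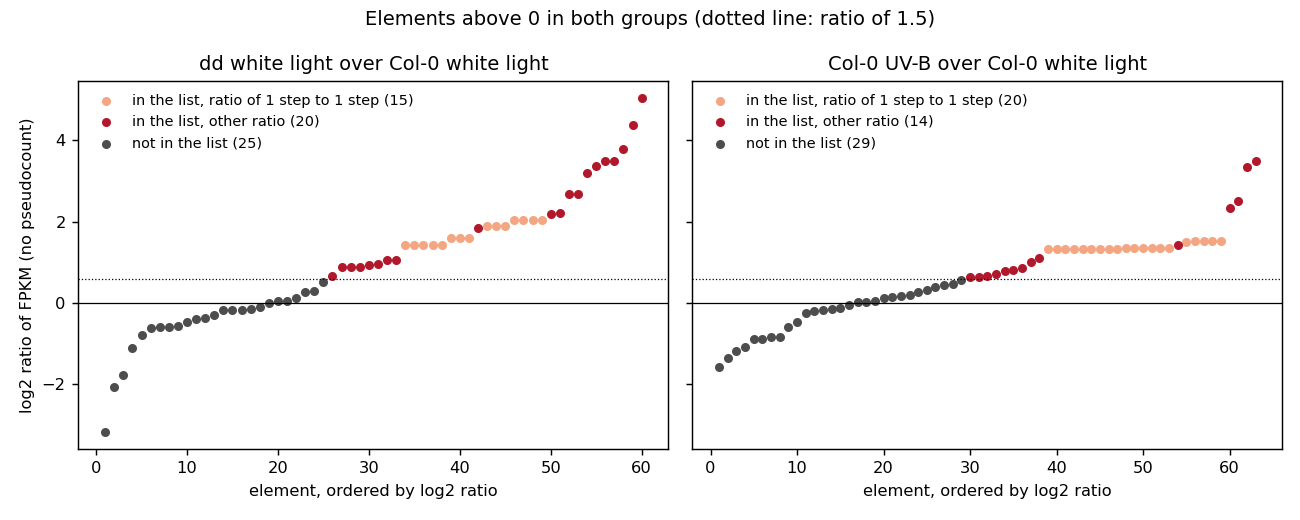
Log2 ratios of pooled FPKM for elements above 0 in both groups, in order, for dd (60 elements, left) and UV-B Col-0 (63 elements, right), each over white-light Col-0. Light points are listed elements at the ratio of 1 step to 1 step (15 in dd, 20 under UV-B), red points other listed elements and grey points those not listed. The light points form plateaus, at log2 ratios of 1.33 to 1.53 under UV-B.

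Of the 503 elements, 249 (49.5%) adjoined another entry with no base between them, against 64.2% of isolated elements at 0. For 29, the adjoining locus range was one given for a protein-coding gene. Whether fragments there reach into the adjoining entry was not tested. The elements lay on all 5 chromosomes, at 2.59% to 2.79% of the isolated elements of each. By 1-Mb window, 347 (69.0%) were in the 44 of 123 windows with more transposable elements than protein-coding genes, as were 68.1% of isolated elements at 0. Of the elements listed only under UV-B, 79.25% lay in those windows, against 74.7% of those listed only in dd, 60.0% of those listed in all 3 groups and 64.8% of those listed only in white-light Col-0. Distances to protein-coding genes were taken to their locus ranges, which different entries can share, so the gene itself can lie further away. Within 1000 bp of the locus range of a protein-coding gene lay 297 elements (59.05%), against 52.05% of isolated elements at 0. Of the 24 elements with 5 or more step units, 18 did (75.0%), and of the 279 at 1 step, 166 did (59.5%). The nearest protein-coding gene was a median of 662 bp away for elements with a value and 916 bp away for those at 0, and had a median of 1.92 and 1.18 FPKM in white-light Col-0.

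Some elements with a value stood next to each other. Elements with a value were 2.69% of isolated elements, and how many would be neighbours at random was not tested. Of the 503, 31 stood in 15 runs of consecutive entries, and the longest run had 3. In that run, AT5TE49150 was at 0.0861 FPKM in dd, AT5TE49145 at 0.156 FPKM under UV-B and AT5TE49140 at 0.0662 FPKM in white-light Col-0, each at 0 in the other groups. Over 40 elements named for their q, level, ratio or place in the authors' lists, 48 of 80 flanking entries were at 0 in all groups and 19 were above 1 FPKM in some group. Just inside the rule for having a value were AT5TE50290 at 0.00826 FPKM, AT2TE25970 at 0.00919 FPKM and AT4TE11940 at 0.01003 FPKM, all in white-light Col-0 alone, and just outside it are the elements at 0.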

How the data were processed

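A stranded mRNA kit was used for the RNA libraries, per the labels' protocols. Tools named in the submitters' processing notes are BSMAP, Cufflinks, HISAT2 and Trimmomatic, and the build is TAIR10, with no versions or roles. The deposited values are FPKM, 1 pooled value per group, per the file headers. The p-value and q-value of each comparison are the authors' own and were read as deposited, over all tested entries. With no value per replicate, no test was added. Depth is unknown except through the steps. The 8 bisulfite libraries and the 2 RNA libraries of dd under UV-B are not analysed here.

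Elements were called isolated from the locus ranges, written 1-based. All distances are to the locus range given for an entry. Several different entries shared the same distance, so a named gene itself can lie further away than stated. Log2 ratios carry no pseudocount. Steps were fitted on elements of 500 bp or longer, with a length offset of 200 bp, and read at 350 bp or longer within 5%, after a test on simulated data. The simulated data had the same offset and nearly the same steps, so they checked only the fitting. What a step stands for was not tested. Elements were named by q, by rank within the authors' lists, by level, by log2 ratio, by lowest value and by length; those named only for an unadjusted p, for their step units or as part of a run were chosen after their values were seen. The members, lists and rules were chosen with earlier results of these data known. Reads shared by near-identical copies make single elements uncertain. Names of genes were taken from RefSeq (TAIR10.1), whose table matched 37840 of 69252 entries. Tools were Python 3.11.15, pandas 2.3.3, NumPy 2.4.6 and matplotlib 3.10.9. Alternatives covered minimum values, pseudocounts, spacing, length, thresholds and a common floor.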

Additional observations from a re-analysis of the deposited data

How the results depend on the processing

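No paired analysis was possible because the tables hold 1 pooled value per group, and no replicate was left out for the same reason. Of 76 values under alternative settings, 26 kept near the reported value, 46 moved and 4 reversed. The settings that keep fewer elements lower every count by construction; the cause of other shifts was not tested.

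Of the 503 elements, 321 reached 0.1 FPKM, 120 reached 1 FPKM, 52 lay 500 bp or more from any other entry and 148 were 1000 bp or longer. Elements above 0 in dd with Col-0 at 0 numbered 23 at 1 FPKM, 12 with the 500 bp spacing and 32 at 1000 bp or longer. The reverse numbered 110 at 0.1 FPKM, 42 at 1 FPKM, 27 with the spacing, 72 at 1000 bp or longer and 73 with the common floor. Elements above 0 in UV-B Col-0 and at 0 in white-light Col-0 numbered 21 at 1 FPKM, 4 with the spacing and 31 at 1000 bp or longer. The reverse numbered 109 at 0.1 FPKM, 36 at 1 FPKM, 29 with the spacing, 71 at 1000 bp or longer and 75 with the common floor.

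Of the 2 elements past q in dd, 0 passed q of 0.01, 0 had the 500 bp spacing and 1 was 1000 bp or longer. Both shared their p of 5e-05 and q of 0.0138 in the authors' deposited table with DRM2 and ROS1. The stricter q therefore does not tell these elements from those genes. AT1TE58825 fell just short of the spacing, at 497 bp from the nearest other entry. At an unadjusted p under 0.05 dd had 8 higher and 4 lower elements, and UV-B had 3 higher. The median log2 ratio for dd, 0.95, became -0.44 with a pseudocount of 0.1 FPKM and -0.055 with 1 FPKM, both over all elements above 0 in either group. It was 0.27 at 1 FPKM or more, 1.60 with the spacing, 0.77 at 1000 bp or longer and 0.27 without elements at the ratio of 1 step to 1 step. The median for UV-B, 0.66, became -0.38 and -0.046 with the same pseudocounts. It was 0.19 at 1 FPKM or more, 0.46 at a mean of 0.1 FPKM or more, 0.048 with the spacing, 1.33 at 1000 bp or longer and 0.18 without elements at that ratio. Listed elements numbered 16 at 1 FPKM, 5 with the spacing, 8 at 1000 bp or longer and 20 without that ratio in dd, and 12, 2, 8 and 14 under UV-B. The alternatives without that ratio were chosen after seeing the data. The share near a protein-coding gene was 48.1% with the spacing, 30.6% within 300 bp and 80.5% within 3000 bp, where isolated elements at 0 had 28.7% and 75.5% at those distances.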

Other observations

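Some short elements had high values in all 3 groups. AT1TE37060 (86 bp) was at 248 FPKM in dd, 250.1 FPKM under UV-B and 279.9 FPKM in white-light Col-0. The next element, AT1TE37065, 196 bp away, was at 6.91 FPKM in dd, 15.5 FPKM under UV-B and 10.6 FPKM in white-light Col-0. AT4TE03905 (160 bp) was at 33.5 FPKM in dd, 37.4 FPKM under UV-B and 33.4 FPKM in white-light Col-0, with both flanking elements at 0. AT1TE23980 is not short, at 762 bp, and lies 104 bp from the wall-associated kinase gene WAK1. It was at 7.59 FPKM in dd, 8.66 FPKM under UV-B and 8.55 FPKM in white-light Col-0.

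Over the whole of the authors' lists, 59 of 270 entries for dd (21.9%) and 78 of 269 for UV-B (29.0%) had the ratio of 1 step to 1 step.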
